A study of Homo sapiens with 10 samples.

Results

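The 10 genes described here code for integrin subunits: the alpha subunits *ITGA2*, *ITGA3*, *ITGA4*, *ITGA6* and *ITGAV* and the beta subunits *ITGB1*, *ITGB3*, *ITGB4*, *ITGB5* and *ITGB8*. They were taken by symbol from an expression table of 27945 gene symbols, and their 28 RefSeq rows were reduced to the row with the highest mean for each gene. RNA-Seq was carried out on EA.hy926, a human endothelial line made by fusing umbilical vein endothelial cells with the A549 lung carcinoma line. The groups were 3 *VEGFA-LNC* deletion clones with 2 controls and 3 *VEGFC-LNC* deletion clones with 2 controls. *VEGFA-LNC* and *VEGFC-LNC* are long noncoding RNAs near the genes of the growth factors VEGFA and VEGFC, and each deletion was made with CRISPR/Cas9 and a pair of guide RNAs. The control cells received the guide RNAs but no Cas9 and were carried through the same selection of colonies, so all 10 libraries share transfection, selection and medium with serum. Each deletion library is 1 clonal line, so a difference between clones and a difference made by the deletion are separated only by the spread over 3 clones. Neither lncRNA was matched to a row of the table, and the deletions were not checked here.

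Integrins are receptors of 1 alpha and 1 beta subunit that tie the extracellular matrix to the actin or keratin cytoskeleton and signal in both directions across the membrane. The subunits *ITGB3*, *ITGB5* and *ITGB8* pair mainly with *ITGAV* and bind ligands with an RGD motif, such as vitronectin, fibronectin, osteopontin and latent TGF-beta. *ITGB1* pairs with many alpha subunits, among them those for collagen (*ITGA2*), laminin (*ITGA3* and *ITGA6*) and *VCAM1* or fibronectin (*ITGA4*), and *ITGB4* pairs with *ITGA6* in hemidesmosomes. In endothelium, integrins are known for anchoring cells to the basement membrane and for their part in angiogenesis.

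The libraries held between 6743971 and 24197654 reads, recovered from the FPKM values and the transcript lengths. FPKM is the number of reads per kilobase of transcript, scaled to the size of the library. All 10 genes were among the 13333 genes tested. Of the 12 endothelial markers, 1 (*CLDN5*) was at 0 in every library, and the summed level of the list was 295.3 to 1010 FPKM over the libraries. Of the 10 markers of the A549 parent, 6 were under 1 FPKM in every library, and the sum was 439.9 to 1314 FPKM. The sums of the leukocyte and of the platelet markers reached at most 4.58 and 0.052 FPKM. The control pairs were far closer to each other than clones were, with a median SD of log2 values of 0.065 and 0.064 in the controls against 0.287 in the *VEGFA-LNC* and 0.249 in the *VEGFC-LNC* deletion clones. Whether the control libraries were separate cultures is not given in the labels, so p-values measure the spread between these libraries, which may be technical in part. The fit took 1 spread per gene over all groups. The test between the control sets thus also uses the spread of the clones. In bulk RNA, fewer cells with a transcript and less of it per cell cannot be told apart.

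Upon *VEGFA-LNC* deletion, *ITGAV* and *ITGB8* fell, and the other 8 genes did not pass the test. Genes counted as called when the FDR was under 0.05 and the expression ratio (FC) was 1.5 or more in either direction. The 2 called genes of 10 stand beside 2.75% of all genes tested, and 2.02% of all were called lower. Upon *VEGFC-LNC* deletion none of the 10 was called, beside 0.473% of all genes (0.323% lower); 2508 of all genes and *ITGAV*, *ITGB3*, *ITGB5* and *ITGA4* had an unadjusted p under 0.05 in limma, and 0 of the 10 were called with voom on recovered reads. Between the controls, *ITGAV*, *ITGB3* and *ITGB8* were lower in the *VEGFC-LNC* set than in the *VEGFA-LNC* set, 3 of 10 beside 12.7% of all genes (9.76% lower). The effects of the 2 deletions differed for *ITGAV* and *ITGB8*, 2 of 10 beside 1.46% of all genes (0.863% lower). The median log2 FC of the 10 genes was -0.22 upon *VEGFA-LNC* deletion (all genes -0.06), 0.14 upon *VEGFC-LNC* deletion (all genes -0.09) and -0.34 between the control sets (all genes -0.11). Of the 10 genes, 7 were lower and 3 higher upon *VEGFA-LNC* deletion, and 2 were lower and 8 higher upon *VEGFC-LNC* deletion, counted without regard to the test. These calls changed with single libraries. Without either *VEGFA-LNC* control 0 of the 10 were called upon *VEGFA-LNC* deletion. Without the first *VEGFA-LNC* clone, *ITGA3* (FDR 0.0256) and *ITGB4* (FDR 0.0114) were called higher upon *VEGFA-LNC* deletion beside *ITGAV* and *ITGB8*. In that fit *ITGA4* (FDR 0.018) was called lower and *ITGAV* (FDR 0.0377), *ITGB3* (FDR 0.0245) and *ITGB5* (FDR 0.0414) higher upon *VEGFC-LNC* deletion. The log2 FCs upon *VEGFC-LNC* deletion do not use a *VEGFA-LNC* clone, so only the shared estimate of the spread changed there. Without the second *VEGFA-LNC* clone *ITGA4* was called lower upon *VEGFA-LNC* (FDR 0.0479) and *VEGFC-LNC* deletion (FDR 0.0459). Without the first or the second, *ITGB4* was called higher in the *VEGFC-LNC* controls (FDR 0.00742 and 0.0297).

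**Figure D1:**
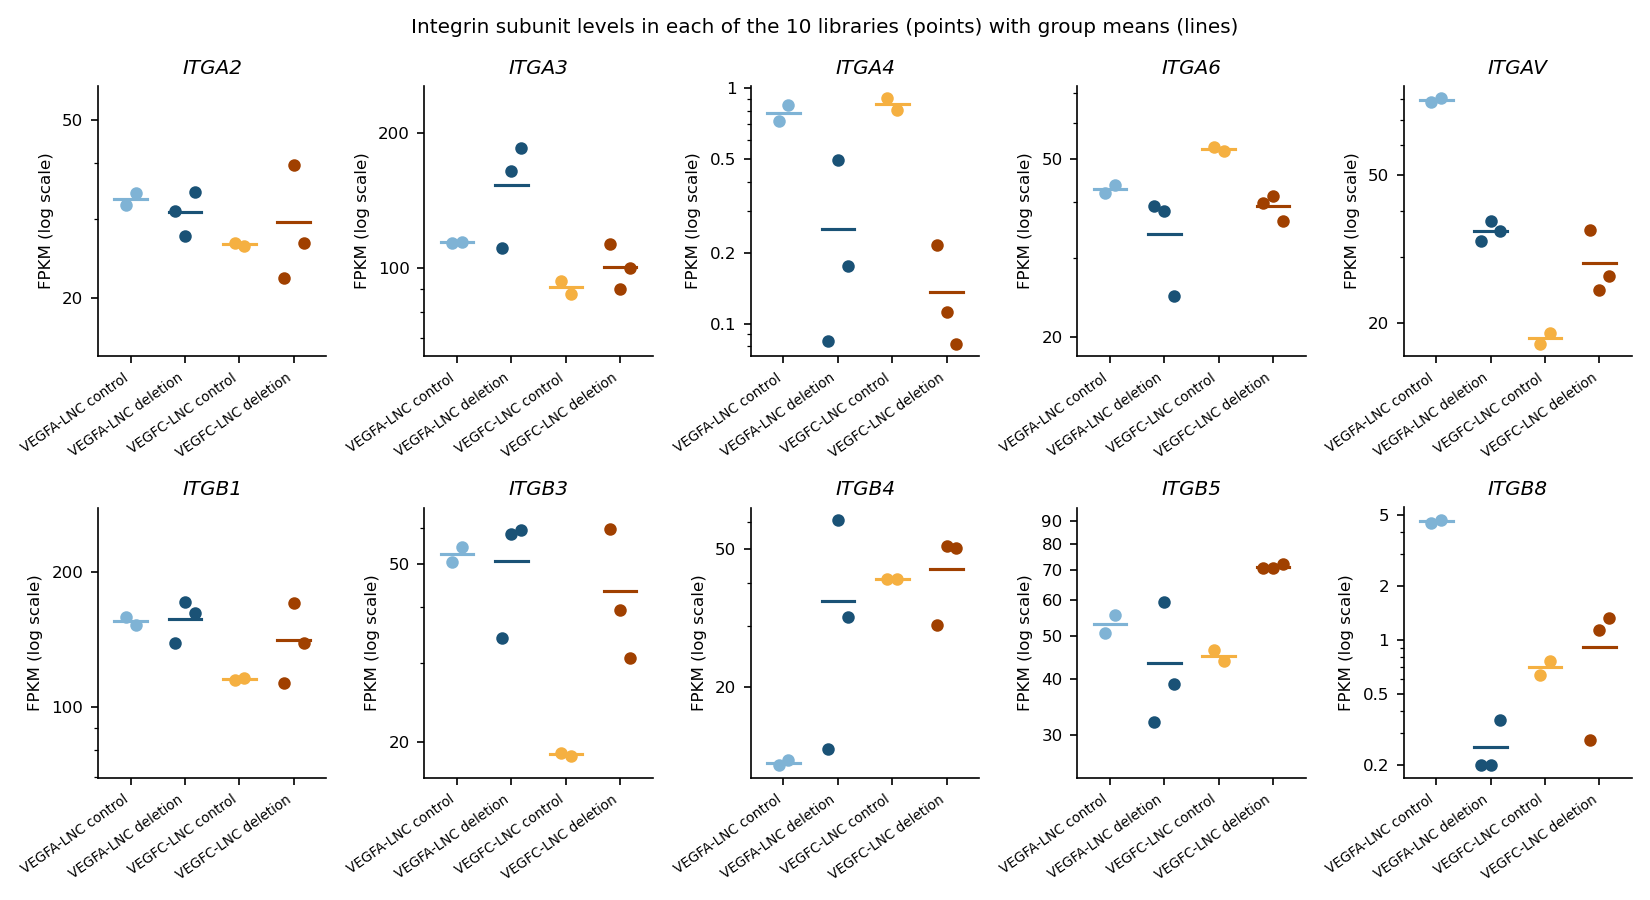
FPKM of each gene (log scale, own range in each panel) in the 10 libraries, by group, with the group mean as a line. In the *ITGAV* panel all 6 clones sit between the controls of the *VEGFA-LNC* set (78.6 and 80.3) and those of the *VEGFC-LNC* set (17.5 and 18.8), and in the *ITGB8* panel the 3 *VEGFA-LNC* deletion clones sit at 0.198 to 0.354, under both of their controls.

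The stretches of 250 bases before the RefSeq starts of the 2 genes that fell are shown, since they are the only members called upon a deletion (RefSeq, GRCh38.p14, plus strand, 5′ to 3′). Capitals mark GC boxes (GGGCGG on either strand). The first stretch is chr7:20330650-20330899, and the others are chr2:186589806-186590055 and chr2:186599955-186600204, before the upstream and the downstream start of *ITGAV*.
ITGB8: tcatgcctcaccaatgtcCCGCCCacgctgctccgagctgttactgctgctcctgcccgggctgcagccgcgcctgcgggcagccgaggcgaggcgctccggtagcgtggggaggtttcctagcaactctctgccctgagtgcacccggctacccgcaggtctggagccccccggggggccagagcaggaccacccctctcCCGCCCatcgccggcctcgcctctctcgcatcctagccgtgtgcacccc
ITGAV upstream: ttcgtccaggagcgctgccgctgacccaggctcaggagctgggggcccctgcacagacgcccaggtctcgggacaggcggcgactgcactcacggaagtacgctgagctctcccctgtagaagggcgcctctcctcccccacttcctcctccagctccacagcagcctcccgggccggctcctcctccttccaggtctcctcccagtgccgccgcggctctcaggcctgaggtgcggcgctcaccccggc
ITGAV downstream: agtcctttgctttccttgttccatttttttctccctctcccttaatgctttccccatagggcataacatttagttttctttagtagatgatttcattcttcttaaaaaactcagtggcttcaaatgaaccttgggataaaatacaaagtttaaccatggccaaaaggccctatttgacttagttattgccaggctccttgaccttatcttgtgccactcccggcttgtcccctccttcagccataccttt
The *ITGB8* stretch held 2 GC boxes and the *ITGAV* stretches 0, where 42.6% of 35116 such promoter stretches held at least 1. The G and C content was 71.2% for *ITGB8* and 70.8% and 40.8% for *ITGAV*, against a median of 58.0% over all. A CRE (TGACGTCA) was in none of the 3 stretches and in 1.65% of all. An E-box (CACGTG) was in none of the 3 and in 6.34% of all. An ETS site (CCGGAAGT) was in none of the 3 and in 3.42% of all. Both strands were searched, and none of these strings holds another of them. Sequences were found for 7 of the 10 genes.

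*ITGAV*, the alpha subunit of the RGD-binding integrins, lies at chromosome 2, 187464932 to 187545629 (hg19, plus strand). Its level was 78.6 and 80.3 FPKM in the *VEGFA-LNC* controls and 33.2, 37.7 and 35.2 FPKM in the *VEGFA-LNC* deletion clones. It was 17.5 and 18.8 FPKM in the *VEGFC-LNC* controls and 35.5, 24.4 and 26.7 FPKM in the *VEGFC-LNC* deletion clones. Each clone was thus apart from its own controls, lower in 3 of 3 *VEGFA-LNC* clones and higher in 3 of 3 *VEGFC-LNC* clones, while the clones of both deletions lay next to each other. Upon *VEGFA-LNC* deletion the mean fell 2.25-fold, with a log2 FC of -1.17 (SE 0.16, FDR 0.012). Upon *VEGFC-LNC* deletion the log2 FC was 0.65 (SE 0.16, FDR 0.11), which did not pass. *VEGFC-LNC* controls had a mean 4.38-fold lower than those of the *VEGFA-LNC* set (log2 FC -2.12, SE 0.18, FDR 0.0014). All 6 clones lay between the 2 control sets for *ITGAV* and for no other of the 10 genes, and this held for 2.95% of all genes tested. Against all 4 controls together the *VEGFA-LNC* deletion gave a log2 FC of -0.10 (FDR 0.946), and without either *VEGFA-LNC* control the FDR was 0.184 or 0.181.

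*ITGB8*, a partner of *ITGAV* that binds latent TGF-beta, had the largest FC of the 10 genes. It lies at chromosome 7, 20370725 to 20455382 (hg19, plus strand). The *VEGFA-LNC* controls had 4.50 and 4.68 FPKM and the deletion clones 0.20, 0.198 and 0.354 FPKM, from 26 to 54 reads in a clone against 686 and 926 in a control. The *VEGFC-LNC* controls had 0.637 and 0.764 FPKM and the deletion clones 0.275, 1.14 and 1.32 FPKM. The *VEGFA-LNC* deletion clones were below their controls in 3 of 3, while the first *VEGFC-LNC* clone was below its controls and the other 2 above them. The mean fell 18.3-fold upon *VEGFA-LNC* deletion, and the log2 FC on the scale of log2(FPKM + 0.1) was -3.77 (SE 0.52, FDR 0.012). With a pseudocount of 1 it was -2.16 and with 0.01 it was -4.19, and it was called with both. Upon *VEGFC-LNC* deletion the log2 FC was 0.12 (SE 0.52, FDR 0.91). The *VEGFC-LNC* controls were lower than the *VEGFA-LNC* controls by a log2 FC of -2.56 (SE 0.57, FDR 0.0237; 0.122 to 0.159 without any 1 control). Against all 4 controls the log2 FC of the *VEGFA-LNC* deletion was -2.49 (FDR 0.211), and without either *VEGFA-LNC* control the FDR was 0.184 or 0.173. An uncharacterized gene on the opposite strand, *LOC101927811*, overlaps *ITGB8* and reached 0.698 FPKM, and whether the counting used the strand is not given in the sources used here.

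*ITGB3* and *ITGB5*, the vitronectin receptor partners of *ITGAV*, were called upon neither deletion. *ITGB3* was at 50.5 and 54.5 FPKM in the *VEGFA-LNC* controls and at 34.2, 58.2 and 59.5 FPKM in the deletion clones, which lay on both sides of the controls. It was at 18.985 and 18.608 FPKM in the *VEGFC-LNC* controls and at 59.8, 39.5 and 30.8 FPKM in the deletion clones, each above both controls. The log2 FC of *ITGB3* was -0.10 (SE 0.30, FDR 0.893) upon *VEGFA-LNC* deletion and 1.15 (SE 0.30, FDR 0.126) upon *VEGFC-LNC* deletion. Between the control sets *ITGB3* was lower in the *VEGFC-LNC* controls (log2 FC -1.48, SE 0.33, FDR 0.0252). *ITGB3* thus stood above all 4 controls in 3 of the 6 clones and between the control sets in the other 3. Without any 1 of the 4 controls, the FDR of this control difference rose to between 0.127 and 0.166. *ITGB5* was at 50.8 and 55.7 FPKM in the *VEGFA-LNC* controls, 32.2, 59.4 and 39.1 FPKM in their clones, 46.4 and 44.0 FPKM in the *VEGFC-LNC* controls and 70.7, 70.8 and 72.4 FPKM in their clones. The *VEGFC-LNC* clones agreed closely in *ITGB5* and all exceeded the controls, with a log2 FC of 0.66 (SE 0.22, FDR 0.188) that did not pass the test. The difference between the deletions in *ITGB5* was -0.99 on the log2 scale (SE 0.31, FDR 0.149).

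*ITGB1*, the shared beta subunit, was the most abundant of the 10 genes in each group. Its mean was 155 ± 4.50 FPKM (SD, n = 2) in the *VEGFA-LNC* controls, 157 ± 16.7 (n = 3) in their clones, 115 ± 0.841 (n = 2) in the *VEGFC-LNC* controls and 141 ± 28.7 (n = 3) in their clones. The log2 FC of *ITGB1* was 0.01 (95% interval -0.40 to 0.42) upon *VEGFA-LNC* deletion and 0.27 (-0.14 to 0.67) upon *VEGFC-LNC* deletion. A small nucleolar RNA gene, *SNORA86*, lies within *ITGB1* on the same strand. *ITGA2*, the alpha subunit of the collagen receptor, ranged from 22.2 to 39.7 FPKM over the 10 libraries, and its 95% intervals were -0.61 to 0.40 and -0.38 to 0.62 on the log2 scale for the *VEGFA-LNC* and the *VEGFC-LNC* deletion. *ITGA3*, of the laminin receptor with *ITGB1*, was at 114 and 115 FPKM in the *VEGFA-LNC* controls and at 111, 165 and 185 FPKM in the clones. The first *VEGFA-LNC* clone was thus just below the controls in *ITGA3* and the other 2 above them, with a log2 FC of 0.39 (SE 0.21, FDR 0.344). In the *VEGFC-LNC* set *ITGA3* ranged from 87.7 to 113 FPKM, and the log2 FC was 0.15 (SE 0.21, FDR 0.713).

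*ITGA6* and *ITGB4* form the hemidesmosome receptor for laminin. *ITGA6* was at 42.0 and 43.7 FPKM in the *VEGFA-LNC* controls, 39.2, 38.2 and 24.8 FPKM in their clones, 53.2 and 52.0 FPKM in the *VEGFC-LNC* controls and 39.9, 41.3 and 36.4 FPKM in their clones. All 6 clones were below both control sets in *ITGA6*, but the log2 FCs of -0.36 (SE 0.19, FDR 0.345) and -0.42 (SE 0.19, FDR 0.276) did not pass. *ITGB4* was at 11.9 and 12.3 FPKM in the *VEGFA-LNC* controls and at 13.2, 60.9 and 31.9 FPKM in the clones. Its 3 clones were above the controls, but they differed 4.60-fold among themselves, and the log2 FC of *ITGB4* was 1.28 (SE 0.52, FDR 0.219). In the *VEGFC-LNC* set *ITGB4* was at 41.2 and 40.9 FPKM in the controls and at 30.3, 51.3 and 50.4 FPKM in the clones (log2 FC 0.06, SE 0.52, FDR 0.957). The *VEGFC-LNC* controls had 3.40-fold the *ITGB4* of the *VEGFA-LNC* controls, with a log2 FC of 1.76 (SE 0.57, FDR 0.0757).

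*ITGA4*, the alpha subunit of the *VCAM1* receptor, was the least or next to least abundant of the 10 genes in each group. The controls had 0.724 and 0.845 FPKM (*VEGFA-LNC*) and 0.903 and 0.806 FPKM (*VEGFC-LNC*). The clones had 0.084, 0.495 and 0.175 FPKM upon *VEGFA-LNC* deletion and 0.216, 0.112 and 0.082 FPKM upon *VEGFC-LNC* deletion. All 6 clones were below all 4 controls, and *ITGA4* was the only one of the 10 genes in which the control sets overlapped. The log2 FC of *ITGA4* was -1.504 (SE 0.47, FDR 0.126) and -2.05 (SE 0.47, FDR 0.0925), so neither deletion passed the test used here. The paper used another test (edgeR on counts) and names *ITGA4* among pathway genes that changed upon *VEGFC-LNC* deletion. The levels of *ITGA4* rest on 4 to 66 reads in a clone. Its log2 FCs also move with the pseudocount, to -0.52 and -0.71 with 1 and to -1.94 and -2.66 with 0.01, and they were called with neither.

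The groups of a comparison did not overlap for 5 of the 10 genes upon *VEGFA-LNC* deletion, beside 39.0% of all genes tested. These were *ITGA4*, *ITGA6*, *ITGAV* and *ITGB8*, which were below, and *ITGB4*, which was above. The count was also 5 of 10 upon *VEGFC-LNC* deletion, beside 47.8% of all genes, with *ITGA4* and *ITGA6* below and *ITGAV*, *ITGB3* and *ITGB5* above. Between the control sets 9 of 10 genes did not overlap, beside 82.9% of all genes.

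**Figure D2:**
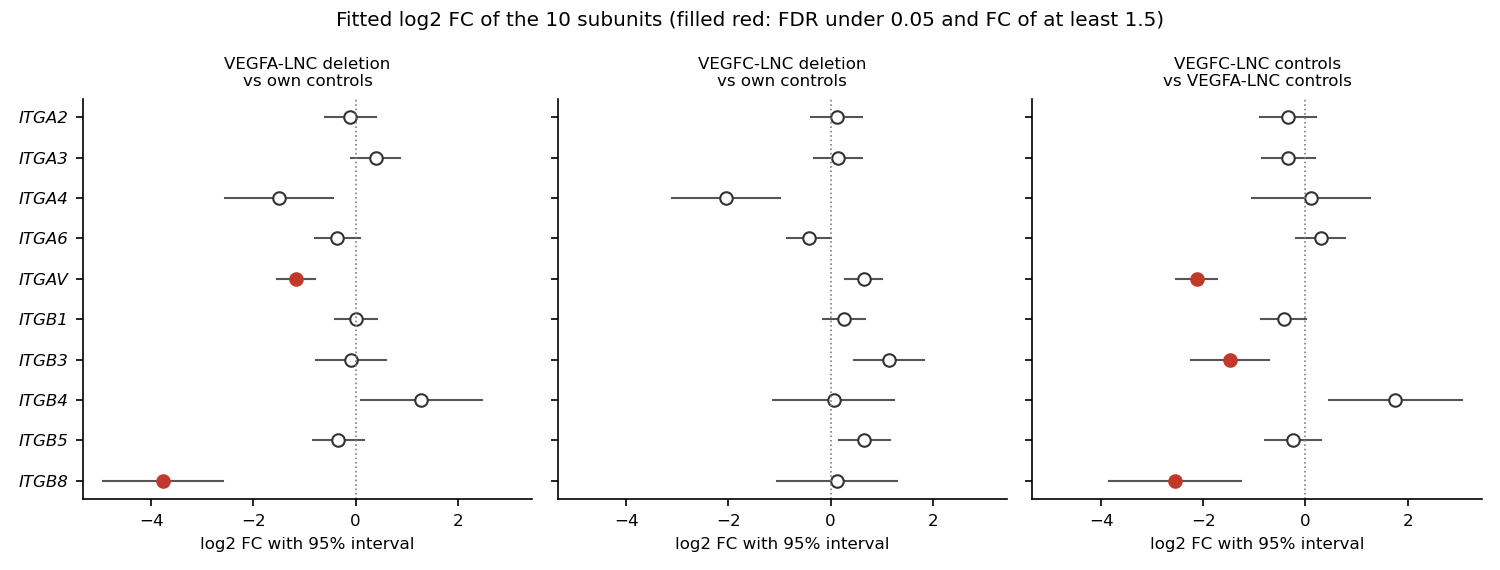
Fitted log2 FC (point) with its 95% interval (line) for the 10 genes in 3 comparisons, with called genes filled in red. *ITGAV* (-1.17) and *ITGB8* (-3.77) are called upon *VEGFA-LNC* deletion, none upon *VEGFC-LNC* deletion, and *ITGAV*, *ITGB3* and *ITGB8* between the control sets.

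Whether the 2 deletions differed in effect was tested directly. For *ITGAV* it was -1.82 on the log2 scale (SE 0.23, FDR 0.0115) and for *ITGB8* -3.90 (SE 0.73, FDR 0.0415). Both effects are read against controls that themselves differed in these 2 genes, and the part of the control levels in the difference was not tested. Without any 1 of the 4 controls neither difference was called, with FDRs of 0.0801 to 0.0983 for *ITGAV* and 0.179 to 0.229 for *ITGB8*, and the difference in *ITGB8* was also lost without *VEGFA-LNC* clone 2 or 3 or *VEGFC-LNC* clone 2 or 3 (0.0618 to 0.0786). Without *VEGFA-LNC* clone 2 the difference in *ITGB5* was called (-1.24, FDR 0.027). The clones of the 2 deletions with the same replicate number deviated together over the genes tested, with correlations of 0.553, 0.409 and 0.219 for the clones numbered 1, 2 and 3. Among unlike numbers, *VEGFA-LNC* clone 2 with *VEGFC-LNC* clone 3 gave 0.263, and *VEGFA-LNC* clone 3 with *VEGFC-LNC* clone 2 gave 0.183. A clone 1 with a clone 2 or 3 gave -0.54 to -0.30. With the replicate number as a block, all genes called for the difference between the deletions fell from 194 to 86. *ITGAV* (FDR 0.0426) and *ITGB8* (FDR 0.0494) were still called. In the same fit the genes called upon *VEGFA-LNC* deletion numbered 151 and upon *VEGFC-LNC* deletion 20, with 2 and 0 of the 10 genes.

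Ratios of alpha to beta transcripts were taken within each library. In the *VEGFA-LNC* controls there was more *ITGAV* than *ITGB3* or *ITGB5*, with ratios of 1.47 to 1.56 and 1.44 to 1.55. In the *VEGFA-LNC* clones the ratios were 0.592 to 0.971 and 0.635 to 1.03, so *ITGAV* was below *ITGB3* in 3 of 3 clones. The *VEGFC-LNC* controls had ratios of 0.924 to 1.01 to *ITGB3* and 0.378 to 0.427 to *ITGB5*. Their clones had 0.593 to 0.867 and 0.345 to 0.502. *ITGAV* made up 29.3% to 29.4% of the summed FPKM of the 5 alpha genes in the *VEGFA-LNC* controls, 12.6% to 15.5% in their clones, 9.15% to 10.1% in the *VEGFC-LNC* controls and 12.5% to 16.8% in their clones. The summed FPKM of the 4 beta partners of *ITGAV* was 266 ± 1.91 (SD, n = 2) in the *VEGFA-LNC* controls and 252 ± 42.5 (n = 3) in their clones, and it was 180 ± 1.08 (n = 2) in the *VEGFC-LNC* controls and 256 ± 22.0 (n = 3) in their clones. *ITGA6* exceeded *ITGB4* 3.54-fold in both *VEGFA-LNC* controls and 0.628 to 2.96 times in their clones, and 2 of the 3 clones had more *ITGB4* than *ITGA6*. These ratios were not tested.

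**Figure D3:**
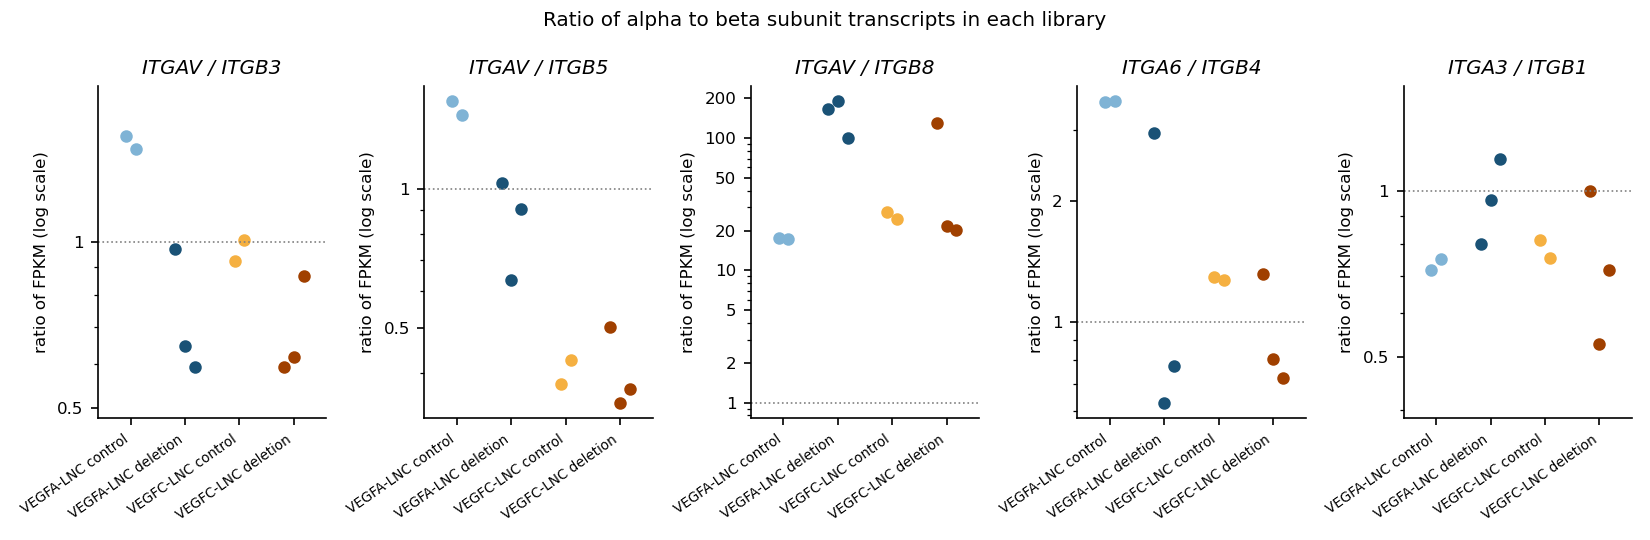
Ratio of alpha to beta FPKM (log scale) in each library for 5 pairs that form receptors, with a dotted line at equal levels. For *ITGAV* to *ITGB3* the *VEGFA-LNC* controls lie at 1.47 and 1.56 and all 3 of their clones below 1, and for *ITGAV* to *ITGB8* the *VEGFA-LNC* clones lie at 99.6 to 190 against 17.15 and 17.45 in their controls.

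By FPKM, which is per length, the order of means in the *VEGFA-LNC* controls was *ITGB1*, *ITGA3*, *ITGAV*, *ITGB5*, *ITGB3*, *ITGA6*, *ITGA2*, *ITGB4*, *ITGB8* and *ITGA4*, and among neighbours the ranges overlapped only for *ITGB5* and *ITGB3*. In the *VEGFA-LNC* clones *ITGAV* stood in the fifth place, and the ranges of neighbours from *ITGB3* down to *ITGA2* overlapped, as did those of *ITGB1* and *ITGA3* and of *ITGA4* and *ITGB8*. In the *VEGFC-LNC* controls *ITGAV* was eighth, with a range that overlapped that of *ITGB3* above it, and in the *VEGFC-LNC* clones it was again eighth. Of the members with more than 1 RefSeq row, all but *ITGA4* gave rows within 0.934 to 1.00 times the chosen one over the libraries. The shorter row of *ITGA4* lay between 0 and 1.41 times the chosen row.

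The genes around the 2 called members were looked at within 2 Mb on hg19. Of the 5 tested neighbours of *ITGAV*, 0 were called in any comparison, and their median log2 FC was 0.09 upon *VEGFA-LNC* deletion and -0.13 upon *VEGFC-LNC* deletion. Of the 7 tested neighbours of *ITGB8*, 1 was called upon *VEGFA-LNC* deletion, beside 2.75% of all genes, with a median of -0.23 (all genes -0.06). Between the control sets 1 was called (median -0.21), beside 12.7% of all genes. For the difference between the deletions 1 was called (median -0.55), beside 1.46% of all genes. Upon *VEGFC-LNC* deletion 0 were called.

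For the 3 members called in a comparison, the 3 genes with the highest Pearson correlation of log2 values over the 10 libraries are named as a description; the libraries share groups and depth. For *ITGAV* they were *STAM2* (0.98), *ATF3* (0.98) and *ARF4* (0.98). For *ITGB3* they were *LAMP1* (0.97), *SCARNA13* (0.96) and *SNHG10* (0.96), and for *ITGB8* they were *MYO5A* (0.98), *PXYLP1* (0.95) and *KHDC4* (0.95). Between members, *ITGAV* gave 0.74 with *ITGB3*, 0.54 with *ITGB8*, 0.05 with *ITGB5* and -0.73 with *ITGB4*.

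The other genes of integrin adhesion were taken as lists. Of 16 other integrin subunits 7 were tested, and 0 were called by limma upon either deletion, with 2 (*VEGFA-LNC*) and 0 (*VEGFC-LNC*) at an unadjusted p under 0.05. *ITGA5*, the fibronectin receptor alpha subunit, was more abundant than any of the 10 genes in the *VEGFA-LNC* controls (218 ± 5.75 FPKM, SD, n = 2), and it was at 150 ± 41.5 (n = 3) in their clones (log2 FC -0.58, SE 0.23, FDR 0.203). It was at 137 ± 4.39 (n = 2) in the *VEGFC-LNC* controls and 158 ± 15.4 (n = 3) in their clones (log2 FC 0.21, SE 0.23, FDR 0.634). *ITGAM*, a leukocyte subunit at 0.503 FPKM in the *VEGFA-LNC* controls and 0.064 in the *VEGFC-LNC* controls, was lower in the latter (log2 FC -1.88, SE 0.29, FDR 0.00841). This call was lost without any 1 control (FDR 0.0728 to 0.108), and with a pseudocount of 1 the log2 FC was -0.498, under the ratio of 1.5, and with 0.01 it was -2.79.

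Of 37 integrin ligands 28 were tested, and 5 fell upon *VEGFA-LNC* deletion, beside 2.02% of all genes called lower, while the others did not pass the test (median log2 FC -0.45 against -0.06 over all genes). *SPP1*, which codes for osteopontin, a ligand of *ITGAV* integrins, went from 86.0 and 86.8 FPKM in the controls to 30.4, 13.7 and 16.8 FPKM in the *VEGFA-LNC* clones (log2 FC -2.17, SE 0.30, FDR 0.012). The matrix glycoprotein *TNC* (log2 FC -2.48, FDR 0.0362), the microfibril protein *FBN1* (log2 FC -1.06, FDR 0.0292), the laminin chain *LAMA3* (log2 FC -0.90, FDR 0.028) and the collagen chain *COL1A1* (log2 FC -1.502, FDR 0.0422) also fell, and *COL1A1* had at most 0.332 FPKM in any library. Without either *VEGFA-LNC* control none of these 5 calls held (FDR 0.173 to 0.387). The calls of *FBN1*, *LAMA3*, *TNC* and *COL1A1* were also lost without either *VEGFC-LNC* control (FDR 0.0719 to 0.0881), *FBN1* and *COL1A1* without *VEGFA-LNC* clone 2 or 3 and *LAMA3* without clone 2 (0.0638 to 0.108), and *TNC* and *COL1A1* without *VEGFC-LNC* clone 2 or 3 (0.0515 to 0.0556). With a pseudocount of 0.01 *TNC* (FDR 0.0741) and *COL1A1* (FDR 0.154) were not called, and with 1 the log2 FC of *COL1A1* was -0.32, under the ratio of 1.5. Upon *VEGFC-LNC* deletion 1 ligand fell and 1 rose, beside 0.473% of all genes called. *TNC* fell to at most 0.016 FPKM in the 3 *VEGFC-LNC* clones from 2.14 and 2.08 FPKM in the controls (log2 FC -4.37, SE 0.49, FDR 0.00927). With clones this near 0 the fitted value is set by the pseudocount and is no bound, and it was -1.63 with 1 and -7.04 with 0.01. *COL4A1*, a chain of basement membrane collagen, rose from 6.69 and 6.37 FPKM to 17.7, 14.3 and 15.1 FPKM (log2 FC 1.25, SE 0.16, FDR 0.0149). Without either *VEGFC-LNC* control the FDR was 0.173 or 0.143 for *TNC* and 0.218 or 0.254 for *COL4A1*, and *COL4A1* also missed the threshold without either *VEGFA-LNC* control (0.0605 and 0.0598). Between the control sets 10 ligands were lower in the *VEGFC-LNC* controls and 1 higher, beside 12.7% of all genes called and 9.76% called lower, with *FN1*, which codes for fibronectin, lower by a log2 FC of -3.48 (FDR 0.0249; 0.13 to 0.156 without any 1 control). Also lower were *CTGF* (log2 FC -2.57), *VTN* (-2.40), *SPP1* (-1.49), *THBS1* (-1.36), *LAMB3* (-1.35), *COL1A1* (-1.34), *FBN1* (-0.95), *LAMA3* (-0.84) and *MFGE8* (-0.83), and *LAMA5* (0.83) was higher. Of the 5 ligands that fell upon *VEGFA-LNC* deletion, all but *TNC* are among these. The part of the control levels was not tested. The deletions differed in *SPP1* (-2.44, FDR 0.0313), in *THBS1* (-2.33, FDR 0.0276), which codes for thrombospondin, and in *COL4A1* (-1.33, FDR 0.0276). These were 3 of 28 beside 1.46% of all genes. Without any 1 of the 4 controls none of these 3 differences was called (FDR 0.149 to 0.189). Without *VEGFA-LNC* clone 3 or any 1 *VEGFC-LNC* clone that of *SPP1* was lost (0.0509 to 0.0684), and that of *THBS1* without *VEGFA-LNC* clone 3 or *VEGFC-LNC* clone 2 (0.0512 and 0.0513).

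Of 46 adaptors and signalling genes in the data 43 were tested. Between the control sets, *FHL2* (log2 FC -1.72), *FERMT3* (-1.09) and *SHARPIN* (-0.86) were lower in the *VEGFC-LNC* controls. *DOCK1* (0.79) and *TGFB1I1* (0.65) were higher there, 11.6% of the list beside 12.7% of all genes. Mean *DOCK1* was 7.045 FPKM in the *VEGFA-LNC* controls, 13.4 in their clones, 12.3 in the *VEGFC-LNC* controls and 11.1 in theirs. Mean *FERMT3* was 11.2, 15.7, 5.21 and 17.0 FPKM in the same order. The part of the control levels was not tested. *DOCK1*, a Rac activator, rose upon *VEGFA-LNC* deletion (log2 FC 0.92, SE 0.17, FDR 0.0312), and *FERMT3*, a kindlin that binds beta subunit tails, rose upon *VEGFC-LNC* deletion (log2 FC 1.67, SE 0.17, FDR 0.00797), and no other was called upon a deletion, so that 1 of 43 was called in each, beside 2.75% and 0.473% of all genes. Without either *VEGFA-LNC* control the call of *DOCK1* was lost (FDR 0.291 and 0.284), as it was without either *VEGFC-LNC* control or *VEGFA-LNC* clone 2 or 3 (0.0697 to 0.0772). That of *FERMT3* was lost without either *VEGFC-LNC* control (0.137 and 0.132). Of 13 hemidesmosome and tetraspanin partners 0 were called upon either deletion (3 at an unadjusted p under 0.05 in each), while *SLC3A2*, *CD151* and *CD63* were lower in the *VEGFC-LNC* than in the *VEGFA-LNC* controls (log2 FC -1.89, -1.43 and -1.21, FDR 0.012, 0.00402 and 0.037), 3 of 13 beside 12.7% of all genes. Without 1 control the FDRs were 0.0898 to 0.111 for *SLC3A2*, 0.0488 to 0.0746 for *CD151* and 0.158 to 0.205 for *CD63*, which was also lost without *VEGFA-LNC* clone 3 (0.0513). *CD151*, a tetraspanin that binds the laminin receptors, also differed between the deletions (-1.13, FDR 0.0476). This difference was lost without any 1 control (0.201 to 0.274), without *VEGFA-LNC* clone 2 or 3 or *VEGFC-LNC* clone 2 or 3 (0.0619 to 0.0895) and with a pseudocount of 0.01 (0.0515). Of 7 genes of the latent TGF-beta complex, 28.6% were called between the control sets, beside 12.7% of all genes. In the *VEGFC-LNC* controls *TGFB2* was lower (log2 FC -1.87, FDR 0.0125) and *LTBP4* higher (0.645, FDR 0.0186). *TGFB2* had at most 0.352 FPKM in any library. With a pseudocount of 1 its log2 FC was -0.373, under the ratio of 1.5. The part of the control levels was not tested. Of the 7 genes, 0 were called upon *VEGFC-LNC* deletion (1 at an unadjusted p under 0.05). Upon *VEGFA-LNC* deletion *LTBP4* rose (log2 FC 0.60, SE 0.12, FDR 0.0382), 1 of 7 beside 2.75% of all genes. The call of *LTBP4* was lost without either *VEGFA-LNC* control (FDR 0.333 and 0.335), either *VEGFC-LNC* control, *VEGFA-LNC* clone 2 or 3 or *VEGFC-LNC* clone 2 (0.0506 to 0.0946), and with a pseudocount of 1 it was 0.57, under the ratio of 1.5.

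**Figure D4:**
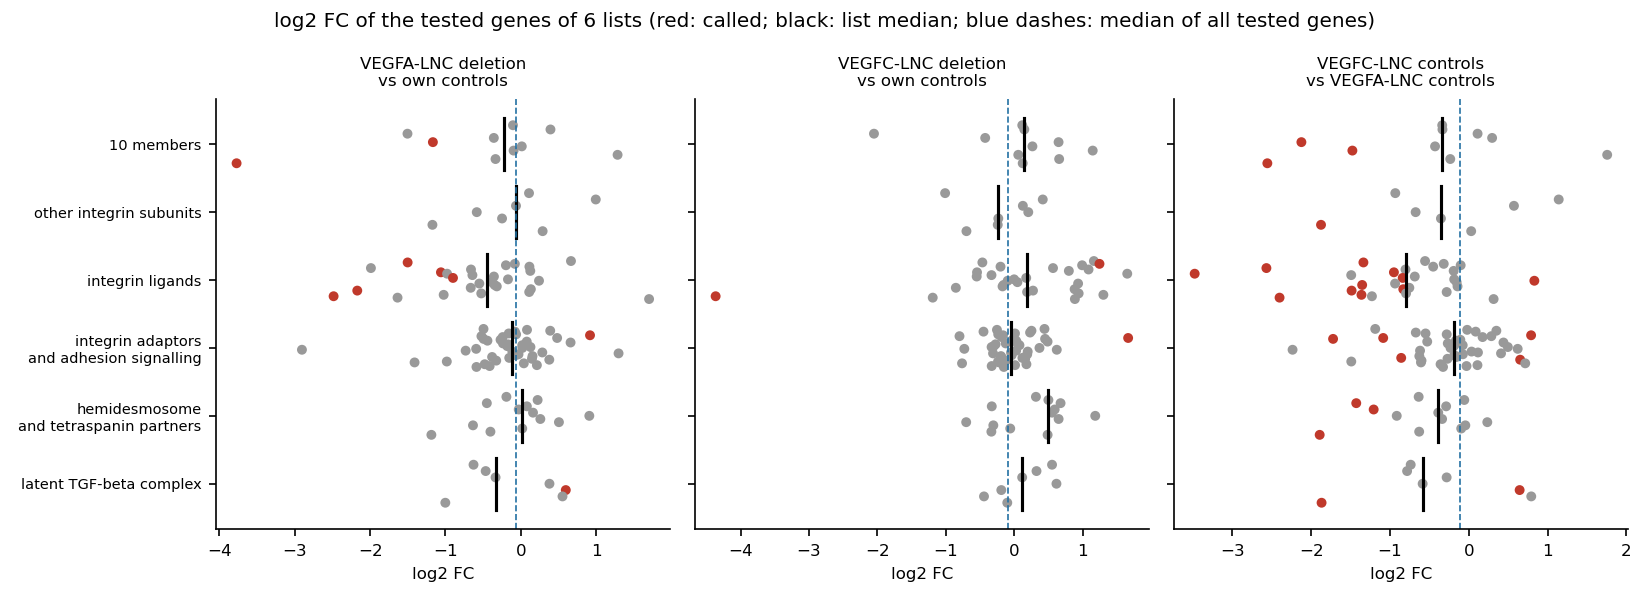
Log2 FC of the tested genes of the 10 members and 5 further lists in 3 comparisons, with called genes in red, list medians as black lines and the median of all genes as blue dashes. The median of the integrin ligands is -0.45 upon *VEGFA-LNC* deletion and -0.80 between the control sets.

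The summed levels of the marker lists differed between the control sets. The endothelial sum was 396 to 410 FPKM in the *VEGFA-LNC* controls, 295.3 to 1010 in their clones, 577 to 587 in the *VEGFC-LNC* controls and 521 to 874 in their clones. The sum of the A549 parent was 1079 to 1090 FPKM in the *VEGFA-LNC* controls, 490.4 to 1314 in their clones, 900.5 to 913 in the *VEGFC-LNC* controls and 439.9 to 868 in their clones, each of which was below its controls. The summed level of 7 fibroblast and smooth muscle markers was 20.8 to 21.1 FPKM in the *VEGFA-LNC* controls, 8.56 to 60.7 in their clones, 1.23 to 1.69 in the *VEGFC-LNC* controls and 1.75 to 20.1 in their clones, with 6 of the 7 under 1 FPKM in every library. Of these 7, 5 were tested, and 2 were called lower in the *VEGFC-LNC* than in the *VEGFA-LNC* controls, beside 9.76% of all genes. They were *COL1A1* and *ACTA2* (log2 FC -4.47, FDR 0.0412), the latter with means of 0.80 and 19.7 FPKM. The leukocyte sum was 3.42 to 3.93 FPKM in the *VEGFA-LNC* controls and 0.39 to 4.58 in their clones. It was 0.419 to 0.711 FPKM in the *VEGFC-LNC* controls and 0.62 to 0.86 in their clones. Of the 11 endothelial markers tested, 9 were higher and 2 lower upon *VEGFA-LNC* deletion (median log2 FC 0.44), with 0 called and 2 at an unadjusted p under 0.05. *EMCN*, which codes for endomucin, was at 4.83 and 5.06 FPKM in the *VEGFA-LNC* controls and at 0.05, 1.54 and 0.172 FPKM in their clones. Upon *VEGFC-LNC* deletion 8 of the 11 were higher and 3 lower (median 0.19, all genes -0.09), and 1 was called, *EMCN*. It went from 6.39 and 6.74 FPKM in the controls to 0.022, 0.121 and 0.184 FPKM in the clones (log2 FC -5.08, FDR 0.0467). The log2 FC of *EMCN* was -2.77 with a pseudocount of 1 and -6.14 with 0.01, where it was not called (FDR 0.0714), and the call was lost without either *VEGFC-LNC* control (0.433 and 0.395), either *VEGFA-LNC* control (0.116), *VEGFA-LNC* clone 3 (0.0753) or any 1 *VEGFC-LNC* clone (0.0705 to 0.13). Between the control sets 8 of the 11 were higher and 3 lower in the *VEGFC-LNC* controls (median 0.24), with 1 called, *EGFL7* (log2 FC 1.46, FDR 0.0234; 0.126 to 0.155 without any 1 control). Of the 4 tested markers of the A549 parent, 3 were lower and 1 higher upon each deletion (median log2 FC -0.39 and -0.72), and 0 were called, with 0 and 2 at an unadjusted p under 0.05. Between the control sets 2 of the 4 were higher and 2 lower (median -0.11). Mean *KRT7* was 513 FPKM in the *VEGFA-LNC* and 250 in the *VEGFC-LNC* controls. In the same order *KRT8* was at 284 and 320 and *KRT18* at 285 and 334 FPKM. *EGFL7*, within the endothelial sum, was at 85.6 and 235 FPKM in that order. The part of these levels in the values of the 10 genes was not tested.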

How the data were processed

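RNA-Seq of rRNA-depleted total RNA was available for 10 libraries of EA.hy926 cells in 4 groups, assigned by the labels. Per the submitters' processing notes, reads were trimmed with Trim Galore (version 0.4.4) and aligned with STAR (version 2.5.4b) to hg19. The notes also list featureCounts, which the paper used with Gencode genes. The authors deposited FPKM values per RefSeq transcript with transcript lengths. Which tool made these RefSeq values, and whether by strand, is not given in the sources used here. The paper's edgeR test needs counts and was not run.

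Of 65572 rows, 42 without a symbol were left out. Reads per library were recovered from FPKM and length (100% of values checked were whole within 0.1 reads). Genes with at least 1 cpm in 2 libraries were fitted as log2(FPKM + 0.1) with limma (version 3.58.1) in R (version 4.3.3), using a mean-variance trend and 4 group means, with Benjamini-Hochberg FDRs over 13333 genes; calls needed an FDR below 0.05 with a ratio of 1.5 or more in either direction. An exact permutation test of 3 against 2 libraries cannot go below 0.1 and was not used. The chi-square per degree of freedom between the counts of a control pair was 3.76 and 1.54, against 18.3 to 138 between clones of 1 group. The counts of a pair were thus not copies of each other. A second sequencing of 1 library could also differ in this way, and the values do not show separate cultures. Each pair was counted as 2 libraries, and the closing section gives the counts with each pair averaged. Clones of the 2 deletions with the same replicate number had correlated deviations (0.219 to 0.553). *VEGFA-LNC* clone 2 and *VEGFC-LNC* clone 3 did so too (0.263), so these values do not settle a pairing by number. The labels do not say what a number stands for. The script for the fit was tested on simulated data.

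The 10 genes and the lists were chosen with earlier results of these data known. All 10 are named, as are the list genes that were called. *ITGA5* was added after its values were seen. Alternatives were other pseudocounts, filters, scaling and rows, all 4 controls, averaged control pairs, voom on recovered reads, a replicate block and leaving out each library. Promoter sequences came from RefSeq (GRCh38.p14), and no coordinates were converted.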

Additional observations from a re-analysis of the deposited data

Results flagged for a closer look

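The effect of the *VEGFA-LNC* deletion differed from that of the *VEGFC-LNC* deletion by a test of the difference itself for 2 of the 10 genes. For *ITGAV* the difference was -1.82 on the log2 scale (FDR 0.0115), from -1.17 upon *VEGFA-LNC* deletion and 0.65 upon *VEGFC-LNC* deletion. For *ITGB8* it was -3.90 (FDR 0.0415), from -3.77 and 0.12. The control sets differed in the same 2 genes, by -2.12 and -2.56.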

How the results depend on the processing

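The calls of *ITGAV* and *ITGB8* changed with the use of the controls. With each control pair averaged to 1 sample, the genes called numbered 0 upon *VEGFA-LNC* deletion, 1 upon *VEGFC-LNC* deletion, 0 between the control sets and 0 for the difference, with 0 of the 10 integrin genes in each. At an unadjusted p under 0.05 there were then 834, 592, 1224 and 689 genes. Against all 4 controls 29 genes and 0 integrin genes were called upon *VEGFA-LNC* deletion, and the direction turned for *ITGA2* (0.064) and *ITGB3* (0.64) in that comparison and upon *VEGFC-LNC* deletion for *ITGA2* (-0.050), *ITGA3* (-0.019), *ITGAV* (-0.41), *ITGB8* (-1.15) and *ITGA5* (-0.13). With the replicate block 151, 20 and 86 genes were called upon *VEGFA-LNC* deletion, upon *VEGFC-LNC* deletion and for the difference, no call among the 10 genes changed, and the direction turned for *ITGB1* upon *VEGFA-LNC* deletion (-6.3e-05) and for *ITGB4* (-0.027) and *ITGB8* (-0.15) upon *VEGFC-LNC* deletion. With no filter 654 genes were called upon *VEGFA-LNC* deletion and 329 for the difference. With limma voom on recovered reads 551 were called upon *VEGFA-LNC* deletion, and *ITGB8* upon *VEGFC-LNC* deletion turned to -0.17. Of the 2 integrin genes that differed between the deletions, 1 was left with a pseudocount of 0.01, with no filter and with voom.

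Leaving out 1 library in turn, or the first clones of both deletions, gave 6 to 2676 genes and 0 to 4 integrin genes upon *VEGFA-LNC* deletion, 5 to 2676 and 0 to 4 upon *VEGFC-LNC* deletion, 33 to 3746 and 1 to 4 between the control sets, and 5 to 1363 and 0 to 4 for the difference. A lone control is assumed there to vary like the other groups. The calls of *ITGAV* and *ITGB8* upon *VEGFA-LNC* deletion were lost without either *VEGFA-LNC* control and held without any clone. Without the first *VEGFA-LNC* clone 1732 genes and 4 integrin genes were called upon *VEGFA-LNC* deletion and 1158 and 4 upon *VEGFC-LNC* deletion. For values near 0 the direction turned in these runs, where *ITGB1* ranged from -0.051 to 0.10 and *ITGB3* from -0.23 to 0.16 upon *VEGFA-LNC* deletion. *ITGA2* ranged from -0.12 to 0.30, *ITGB4* from -0.070 to 0.31 and *ITGB8* from -0.23 to 0.73 upon *VEGFC-LNC* deletion. The difference ranged from -0.41 to 0.012 for *ITGA2* and from -0.050 to 0.28 for *ITGA6*. Scaling by the median of ratios moved the median log2 FC of all genes between the control sets from -0.11 to -0.00434 and the genes called there from 389 higher and 1301 lower to 586 and 906, and *ITGAV*, *ITGB3* and *ITGB8* were called under both. The causes of these changes were not tested. *ITGA4* rests on 4 to 66 reads in a clone and *ITGB8* on 26 to 54 in a *VEGFA-LNC* clone, and the part of the depth in their errors was not tested.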
